A study of Chlamydomonas reinhardtii with 15 samples.

Results

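The comparison described here is between late and early sulfur starvation in 2 wild types of the green alga Chlamydomonas reinhardtii, cc3491 and 4A+ (4aplus in the labels). Every array of these strains was taken, which gave 8 of the 15 arrays of the series, and within each strain the arrays of 72 and 96 h (late) were set against those of 24 and 48 h (early). Cultures had been grown in acetate medium (TAP) to early stationary phase, washed, and kept in the same medium without sulfur under constant light for up to 96 h. Each array carried Cy3-labelled RNA of the same strain at 0 h in green and Cy5-labelled RNA of the starved cells in red, with no exchange of dyes stated. The strain 4A+ served the study as the control of the mutant npq4. The study's methods call both strains wild types, and the labels state no other treatment.

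Biological samples had been pooled before labelling, with 1 array per strain and time, so the 2 arrays of a phase are 2 time points and not separate cultures. All p-values here measure only the spread between such neighbouring time points. The arrays of a strain lay on 1 slide and their position followed the time, so time and position cannot be told apart, nor can strain and slide. Values are log2 ratios of starved over 0 h RNA, and a difference is the mean of the 2 late ratios minus the mean of the 2 early ratios. The common 0 h reference cancels in it as far as its green signal was alike on the arrays of a strain.

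Sulfur is needed for cysteine, methionine, glutathione and sulfolipids. When sulfate runs out, Chlamydomonas secretes arylsulfatases that free sulfate from organic esters, makes more sulfate transporters, replaces sulfur-rich proteins and lowers photosynthesis, while cell division slows and, in the light, sealed cultures can turn anaerobic and produce hydrogen. The first of these responses are known to start within hours, so arrays from 24 h onwards show what is held, what is added and what is given back during a prolonged starvation.

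Of 43687 probes on each array, those well above background in red numbered 20954 to 26290 in cc3491, lowest at 96 h, and 8714 to 12423 in 4A+. In green the numbers were 23602 to 27344 and 18224 to 19605. The added control RNA had a median net red signal of 5960, 2235, 1937 and 818 at 24, 48, 72 and 96 h in cc3491, and of 406, 922, 357 and 601 in 4A+, so it was lower in both late arrays than in both early arrays of cc3491 but not of 4A+. The number of arrays limits the precision of every value. Tests were run on 12875 transcript models, of which 349 had a gene symbol.

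The genes that mark sulfur starvation were raised on all 8 arrays, late as well as early. ARS1, a periplasmic arylsulfatase, had log2 ratios of 3.76, 3.82, 3.33 and 3.49 at 24, 48, 72 and 96 h in cc3491 and of 2.51, 2.53, 2.0 and 2.33 in 4A+. Both late values lay below both early values in each strain, although the mean difference was only -0.37 ± 0.09 (SE) and did not pass the test. Its probes were not alike, since probe 2 differed by 0.29 in cc3491 and 0.18 in 4A+. In cc3491 the log2 red level of probes 1 and 3 was higher late, at 13.77 against 12.60 and 13.39 against 12.43. Their ratios differed by -0.83 and -0.60, so their green level had risen by more than the red. SLT1, a sodium/sulfate co-transporter, had ratios of 2.22, 3.40, 3.97 and 2.59 in cc3491 and of 4.87, 4.77, 4.24 and 4.32 in 4A+. The extracellular polypeptide ECP76 had ratios between 2.28 and 4.07, and ECP88 between 1.88 and 3.04. For both, probe 3 was not well above background in green on any of the 8 arrays. The weakest of these genes was the second arylsulfatase, ARS2, at 0.37 on the 24 h array of 4A+ and at least 1.29 on every other array. The study also describes such genes from these arrays, so they check the label and are no independent evidence.

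The 0 h RNA gives a guide to the technical spread, because it was the same on all arrays of a strain. Its own late minus early difference in green lay between -0.32 and 0.25 for the middle 98% of models in cc3491 and between -0.26 and 0.30 in 4A+, and it exceeded 2-fold for 9 and 5 models. The ratio's difference lay between -1.16 and 1.56 in cc3491 and between -0.81 and 0.86 in 4A+, and exceeded 2-fold for 792 and 152 models. The green level was taken after normalization, which uses both channels, so it is not free of the red signal. In cc3491 it rose late for probes 1 and 3 of ARS1, a gene strongly raised in red. The ratio also holds the variation between samples of starved cells, and what each adds cannot be told apart with 1 array a time point. In cc3491, 616 models were at least 2-fold higher late and 176 at least 2-fold lower, against 87 and 65 in 4A+.

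**Figure D1:**
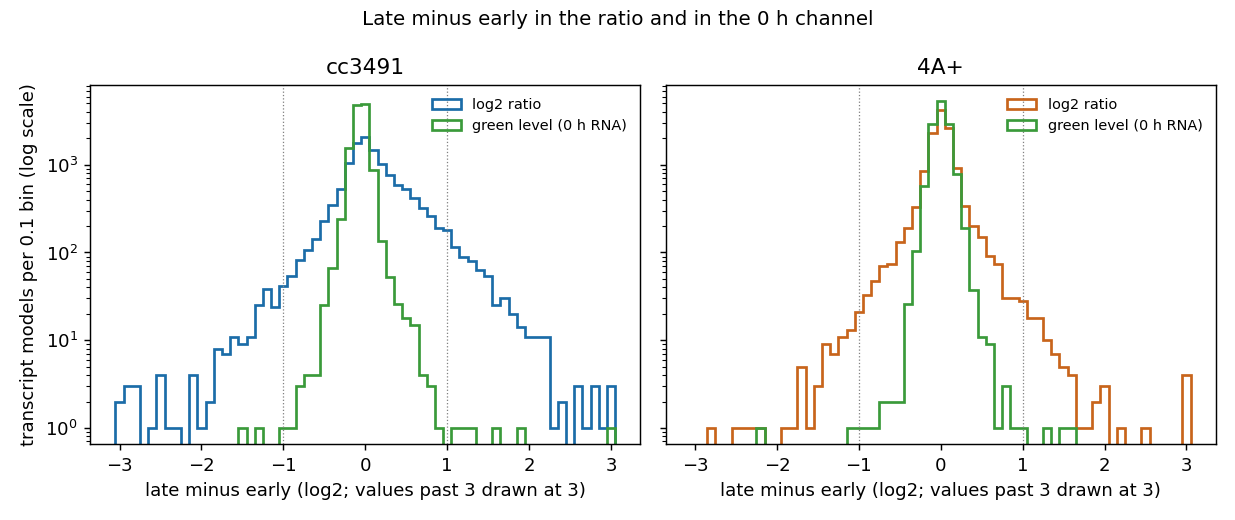
Histograms of the late minus early difference (log2, x axis) over the 12875 models tested (count per bin, log scale), for the ratio and for the green level of the 0 h RNA, in cc3491 (left) and 4A+ (right). Dotted lines mark 2-fold: the ratio passed it for 792 models in cc3491 and 152 in 4A+, the green level for 9 and 5.

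Adjusted p-values are from limma, by Benjamini-Hochberg adjustment over all 12875 models unless Holm is named. A model was called when limma's test gave an adjusted p below 0.05 and the difference was at least 2-fold. For the mean of both strains, Holm adjustment, which the study's methods name, called 0 models (0% of those tested, smallest adjusted p = 0.149), whereas Benjamini-Hochberg adjustment called 25 higher (0.194% of the models) and 5 lower late (0.0388%), and 2180 had an unadjusted p below 0.05. In cc3491 Holm adjustment called 1 model (0.00777%), and Benjamini-Hochberg adjustment called 288 higher (2.24%) and 57 lower (0.443%), with 3157 below an unadjusted p of 0.05. In 4A+ both adjustments called 0 models (0%), with 407 below an unadjusted p of 0.05 and a smallest Benjamini-Hochberg adjusted p = 0.961. All 30 models called for the mean were also called in cc3491, while 5 of them were at least 2-fold changed in 4A+ and 21 had both late arrays beyond both early arrays in each strain. The difference between the strains was itself tested and called 0 models by either adjustment (0%), with a smallest Benjamini-Hochberg adjusted p = 0.0684 and 1906 models below an unadjusted p = 0.05. A call in cc3491 was therefore not shown to differ from 4A+. These counts rest on single arrays. Without the 24 h or the 48 h array of cc3491, Benjamini-Hochberg adjustment called 0 models for the mean, and without its 72 h or 96 h array 102 and 94. Without the 24, 48, 72 or 96 h array of 4A+ the mean had 0, 0, 1 and 0 calls. For cc3491 alone the 345 calls became 0, 86, 578 and 599 without its 24, 48, 72 or 96 h array, and 153 without the 24 h or the 48 h array of 4A+. The difference between strains had 273 and 223 calls without the 72 h or 96 h array of cc3491. The model called in cc3491 under Holm adjustment was model 181451 (locus CHLRE_10g455190v5 of RefSeq, named here after its value was seen), with ratios of 1.27, 1.44, -1.06 and -0.97 in cc3491 and between -0.15 and 0.18 in 4A+.

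As a description without a test, models were counted whose late arrays both lay beyond both early arrays in each strain, in the same direction, with a mean difference of at least 2-fold. There were 89 such models higher late (0.691%) and 19 lower late (0.148%). In 26 of the 89 and 6 of the 19 the difference was at least 2-fold in each strain, and it was larger in cc3491 in 76 and 15. Without a limit on size, 927 models were ordered upwards and 499 downwards in both strains, while 559 went up in cc3491 and down in 4A+ and 403 the reverse. Across the 12875 models the differences of the 2 strains correlated with r = 0.18 and had the same sign in 53.1%, over models that share arrays, labelling and slide and are not independent. With the arrays left out in turn, the count moved most without the 48 h or the 96 h array of 4A+, where it was 155 and 152 upwards and 36 and 57 downwards and fewer arrays had to be in order.

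**Figure D2:**
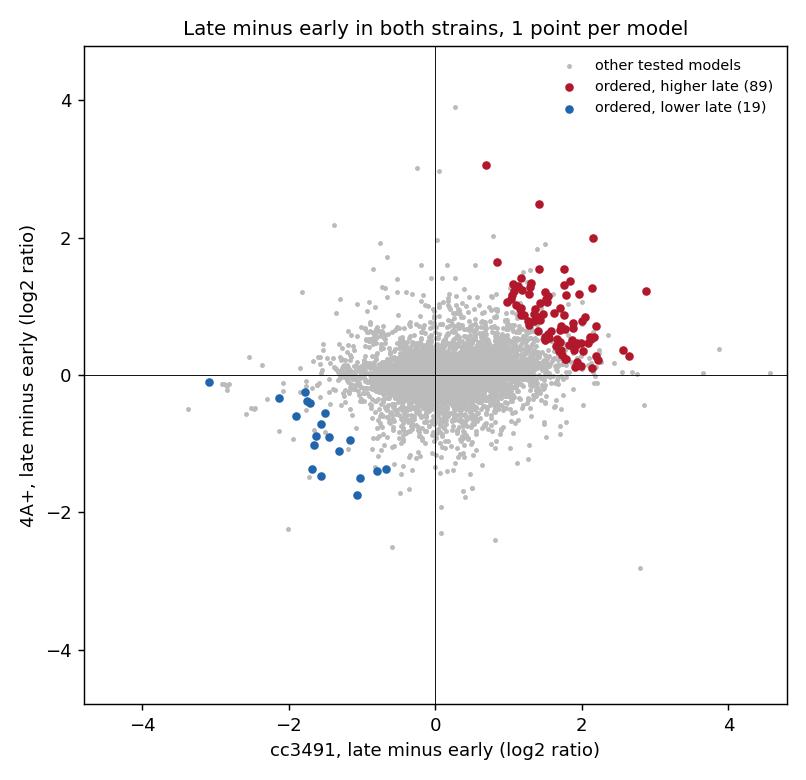
Late minus early difference (log2 ratio) in cc3491 (x axis) against 4A+ (y axis), with 1 point per transcript model. The 89 models ordered upwards in both strains (red) and the 19 ordered downwards (blue) lie mostly nearer to the cc3491 axis, since the difference was larger in cc3491 in 76 and 15 of them.

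Most of the models that still rose after 48 h carried no annotation here. Locus names are those of RefSeq. Model 156256 (CHLRE_13g587100v5) had the largest mean difference among those that met the naming rule. Its ratios were 0.10, 0.27, 2.61 and 2.07 in cc3491 and 0.39, 1.19, 2.70 and 2.88 in 4A+. It was within 2-fold of the 0 h level on the early arrays, except for 1.19 at 48 h in 4A+. Late it was clearly above 0 h in both strains, with no overlap between early and late values. The mean difference was 2.08 ± 0.21 (SE, 8 arrays, limma, adjusted p = 0.0323). Model 155883 (CHLRE_07g312850v5) started below the 0 h level, came back to near it in 4A+ and passed above it in cc3491. Its ratios were -1.01, -0.58, 0.65 and 1.27 in cc3491 and -1.07, -1.20, 0.29 and 0.07 in 4A+, so it was below the 0 h level on all 4 early arrays and above it on all 4 late ones. It rose by 1.53 ± 0.17 (adjusted p = 0.0323).

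The other 6 rising models named by the rule had mean differences of 1.57 to 2.05 but did not pass the test, with adjusted p between 0.0843 and 0.371. Model 160970 had ratios of -0.73, -0.46, 1.23 and 3.33 in cc3491 and of -0.38, -0.32, 0.94 and 0.81 in 4A+ (mean difference 2.05 ± 0.44). Model 205557 had -1.52, -1.19, 1.75 and -0.17 in cc3491 and 0.23, 0.18, 1.49 and 1.45 in 4A+ (1.70 ± 0.40). In cc3491 both went from below to above the 0 h level between 48 and 72 h, and model 205557 was below it again at 96 h. Model 188454 (CHLRE_07g333150v5) was below 0 h early and above it late in cc3491, at -1.03, -1.35, 1.02 and 0.53, but above it throughout in 4A+, at 1.68, 1.73, 3.59 and 2.18. Model 79042 (CHLRE_14g620300v5) went from -1.80 and -1.32 to -0.32 and 0.86 in cc3491 and from -0.30 and 0.15 to 1.96 and 0.62 in 4A+. Model 182566 (CHLRE_10g452650v5) was lowest at 48 h in cc3491 (-2.49) and reached 0.03 at 96 h, and in 4A+ it was -0.97, -0.32, 1.44 and 0.35. In 4A+ 4 of the 8 rising models were lower at 96 h than at 72 h by more than 0.5 on the log2 scale, which the mean of both late arrays does not show. Model 129088 (CHLRE_14g617400v5) was in the list through 4A+ alone, at -0.89, 2.89, 5.03 and 3.09. In cc3491 it was -1.35, -0.18, -0.01 and -0.13, and there 2 of its 3 probes were saturated on 2 arrays each. Those 2 probes had a mean log2 green level (0 h RNA) of 15.08 and 15.04 in cc3491 and of 10.81 and 11.08 in 4A+.

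**Figure D3:**
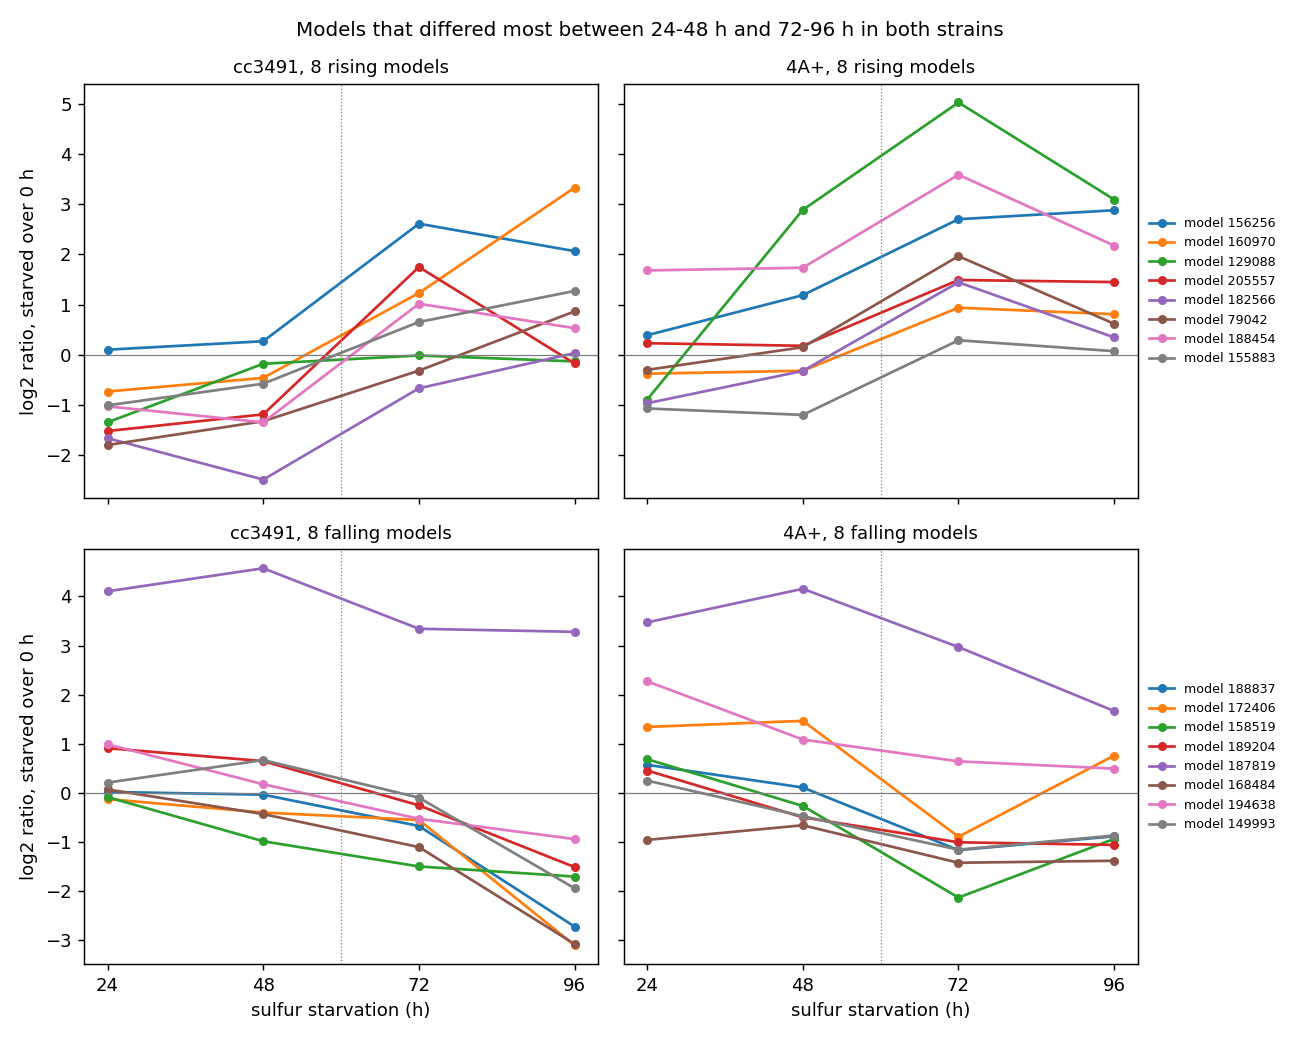
Log2 ratio of starved over 0 h RNA (y axis) at 24, 48, 72 and 96 h (x axis) for the 8 rising and 8 falling models named by the rule, in cc3491 (left) and 4A+ (right), with 1 array per point. The dotted line separates early from late: model 156256 moved from between 0.10 and 1.19 to between 2.07 and 2.88, and the falling models were lowest at 96 h in 8 of 8 in cc3491 and at 72 h in 5 of 8 in 4A+. The naming rule used these values and allows a lowest value only at 72 or 96 h.

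No falling model named by the rule passed the test, with adjusted p from 0.129 to 0.302. Model 187819 (CHLRE_10g466700v5), annotated as an oxygenase-like protein, was the one of these that stayed strongly raised, at 4.11, 4.57, 3.34 and 3.28 in cc3491 and 3.47, 4.16, 2.97 and 1.67 in 4A+. Its highest value was at 48 h in both strains, and the mean difference was -1.26 ± 0.32. Model 188837 (CHLRE_06g308250v5) had the largest falling difference, -1.53 ± 0.44, from 0.02 and -0.03 to -0.67 and -2.72 in cc3491 and from 0.57 and 0.11 to -1.16 and -0.88 in 4A+. Model 194638 (CHLRE_12g499350v5) went back to within 2-fold of 0 h in 4A+, at 2.27, 1.09, 0.65 and 0.50, and was 0.99 and 0.18 early and -0.52 and -0.94 late in cc3491. The other 5 (models 172406, 158519, 189204, 168484 and 149993) had mean differences of -1.52 to -1.18. In cc3491 all 8 falling models had their lowest value at 96 h and 6 were below -1.5 there, and in 4A+ 5 of the 8 were lowest at 72 h. The naming rule allows a lowest value only at 72 or 96 h. It also used these same values, so the counts describe the named models only. The ribosomal protein gene RPS6, a part of the small subunit of the cytosolic ribosome, was ordered downwards in both strains, at 0.26, 0.04, -0.41 and -2.41 in cc3491 and 0.40, -0.18, -0.64 and -0.57 in 4A+, with a mean difference of -1.14 ± 0.43 that did not pass the test.

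Of the 89 and 19 models ordered in both strains with a mean difference of at least 2-fold, 4 had a symbol. Besides RPS6 there were 3, all higher late, and they are named here after their values were seen. GSTS1, a glutathione S-transferase, an enzyme class that joins glutathione to other molecules, had ratios of 1.57, 2.54, 2.90 and 2.89 in cc3491 and 0.66, 3.07, 3.73 and 3.29 in 4A+. It was above 0 h on all 8 arrays, lowest at 24 h in both strains, and its mean difference of 1.24 ± 0.54 did not pass the test. CAM2.a, annotated as calmodulin-like, a class of calcium-binding proteins, had 0.78, 1.17, 3.08 and 2.51 in cc3491 and 1.31, 1.31, 2.01 and 1.48 in 4A+, and CGL39, a predicted protein, had 0.37, 0.94, 2.71 and 2.14 in cc3491 and 0.48, 0.71, 1.32 and 1.21 in 4A+. For both the rise passed the test in cc3491 (1.82 ± 0.26 and 1.76 ± 0.26, adjusted p = 0.0214 for each), and for neither in the mean of both strains (adjusted p = 0.0603 and adjusted p = 0.0507).

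Of the 345 models called in cc3491, 14 had a symbol, and each of these rose, as did 288 (83.5%) of all 345. GLN3, a glutamine synthetase, the enzyme that fixes ammonium into glutamine, went from 0.18 and 0.20 to 1.68 and 1.47 in cc3491 (difference 1.38 ± 0.10, adjusted p = 0.0102) and was between 0.02 and 0.14 on all 4 arrays of 4A+. In 4A+ the red signal of its 3 probes never rose well above background, so the low value there is not a measured absence of change, and the difference between strains had adjusted p = 0.0684. One cc3491 probe was not well above background in red on either early array and was at least 2.04-fold brighter late. Such bounds set the late red level against the higher of the probe's own early level and the lowest well-measured level on each array, and they are open to dye bias.

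The remaining symbols called in cc3491 were again chosen after seeing values and held enzymes of several pathways. GSH2, glutathione synthetase, the last step of glutathione synthesis, rose from 0.99 and 0.90 to 1.77 and 2.13 in cc3491 (1.01 ± 0.13, adjusted p = 0.0169) and lay between 0.14 and 0.20 on the 4A+ arrays, where none of its probes was well above background in red on all arrays. PGP3, a phosphoglycolate phosphatase, an enzyme type of photorespiration, rose from 0.64 and 0.94 to 1.96 and 1.93 (1.16 ± 0.12, adjusted p = 0.0115). VTE4, the methyltransferase that makes alpha-tocopherol (vitamin E) from its gamma form, was the 1 symbol that was ordered the opposite way in 4A+: it rose from 1.16 and 1.00 to 2.09 and 2.32 in cc3491, whereas 4A+ had 1.39, 1.60, 0.90 and 0.80. Its difference between strains was -1.78 with an adjusted p = 0.0684. SMP9, the core spliceosome protein Sm D1, was lowered early in cc3491 (-1.60 and -1.57) and closer to 0 h late (-0.19 and -0.52), and lay between -0.03 and 0.02 in 4A+, where none of its probes was well above background in red on all arrays. RHE, an RNA helicase with only 1 tested probe, came back in part, from -3.06 and -3.76 to -1.79 and -2.23 in cc3491. When processing settings and arrays were varied, its difference in cc3491 lay between 0.46 and 2.12, and the call was lost in 10 of 15 settings. CAM2.b, UBC3 (a ubiquitin-conjugating enzyme), ELG3 (a glycosyltransferase), THY28, ANK27 and IF2Bd rose by 1.09 to 1.36 in cc3491.

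The calls in cc3491 were looked up on the 4A+ arrays as a description. The 4A+ values did not enter the cc3491 difference, but the test pooled the residual spread over both strains, so the models were not chosen without them. The 288 models called higher late in cc3491 had a median difference of 0.13 in 4A+, against 0.01 over all models, were positive there in 75% against 52.0%, and were ordered upwards in 44.8% against 19%. The size was small: 7 of the 288 were at least 2-fold higher late in 4A+. The 57 models called lower late had a median of -0.07 in 4A+, were positive in 33.3%, and were ordered downwards in 31.6% against 16.5%. Among the 204 of the 288 with a probe well above background in red on all 4A+ arrays, 47.1% were ordered upwards, against 17.0% of all models measured that well. When models were chosen on the cc3491 values alone, a choice added after seeing the data, 39.7% of the 590 ordered and at least 2-fold higher late in cc3491 were ordered upwards in 4A+, with a median of 0.16. Of the 156 ordered and at least 2-fold lower, 20.5% were ordered downwards in 4A+, with a median of -0.05.

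What rose late was partly a return. With the mean of the 2 arrays of a phase, a model was placed below, near or above 0 h at 2-fold. Of the 288 models called higher late in cc3491 (means of the cc3491 arrays alone), 79 went from below to near, 128 from near to above, 71 stayed near, 6 stayed above, 3 stayed below and 1 went from below to above. Of the 57 called lower in cc3491, by the same means, 37 stayed near, 11 went from above to near, 7 from near to below, 1 from above to below and 1 stayed above. By the means over both strains, the 89 ordered upwards held 22 that went back from below to near and 36 that went from near to above. These classes use the values that define the calls and were not tested.

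Over all models the 2 strains held their early changes to a different extent. In cc3491, 848 models were below 0 h in the early mean, of which 356 stayed below, 489 came back to near and 3 passed to above, while 563 went from near to above and 106 from near to below. Of the models above 0 h early, 432 stayed, 118 came back and 1 passed to below. In 4A+, 534 of the models below 0 h stayed there, 87 came back and 1 passed to above, and of those above, 427 stayed and 136 came back, while 177 and 125 newly went above and below. On single arrays of cc3491 the models at least 2-fold lowered numbered 932, 899, 573 and 528 at 24, 48, 72 and 96 h and those raised 635, 584, 1166 and 992. In 4A+ the numbers varied less, with 620 to 670 lowered and 589 to 687 raised.

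Models were then chosen on the 24 h array alone and followed on the other arrays. Of the 932 models lowered at 24 h in cc3491, 69.2% were still at least 2-fold lowered at 48 h, 45.6% at 72 h and 36.2% at 96 h, and their median ratio went from -1.38 through -1.28 and -0.92 to -0.72. Of the 620 lowered at 24 h in 4A+, 87.6%, 77.7% and 83.4% were still lowered. A loss between 24 and 48 h is built in, because the 24 h value chose the models, and the later steps are not subject to it in this way. Of the models raised at 24 h, 64.4%, 75.9% and 61.3% of 635 in cc3491 and 74.7%, 63.3% and 64.6% of 624 in 4A+ remained raised. With the scanner's own ratios the raised share in cc3491 went from 65.2% at 48 h to 49.3% at 96 h, against 71.0% to 50.6% for the lowered models, so the contrast between raised and lowered models was smaller there. Models chosen on the other strain's 24 h array carry no such choice. Of those lowered in 4A+ at 24 h, 39.4%, 46.1%, 34.5% and 22.6% were lowered in cc3491 at 24, 48, 72 and 96 h, and of those lowered in cc3491 at 24 h, 26.2%, 25.2%, 23.6% and 23.8% were lowered in 4A+. The share of lowered models thus dropped from 48 to 96 h on the cc3491 arrays whichever strain chose them, and moved by less than 2 points on the 4A+ arrays when chosen in cc3491. The cc3491 96 h array also had the fewest probes well above background of its strain. The part of signal level in this share was not tested.

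**Figure D4:**
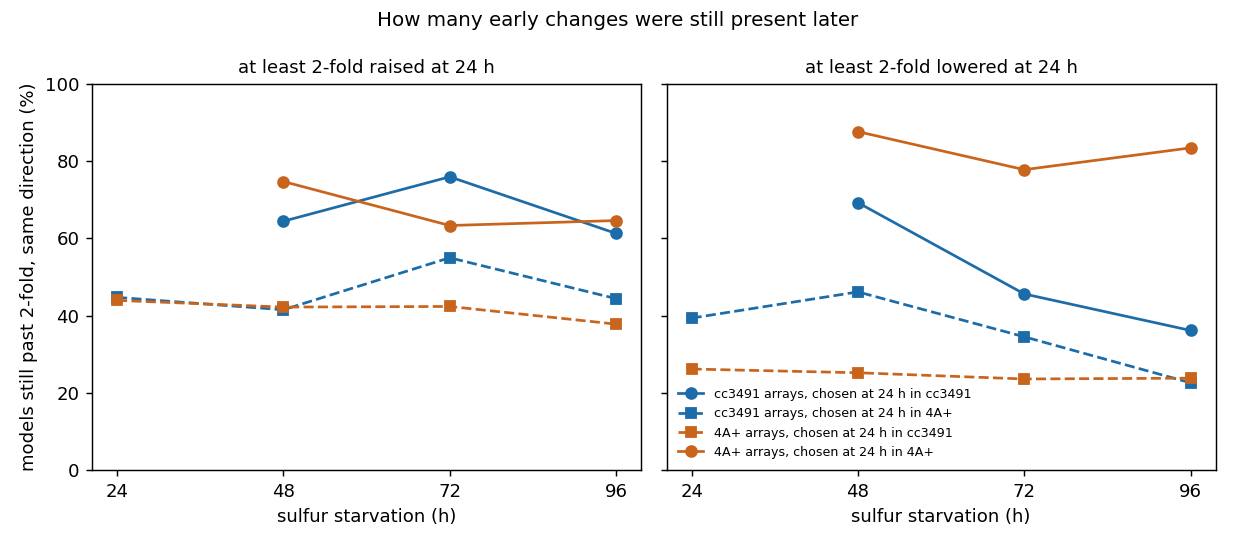
Share of models at least 2-fold raised (left) or lowered (right) at 24 h that were still past 2-fold in the same direction (%, y axis) at each time (h, x axis); colours give the strain of the array, circles and solid lines the models chosen in that strain, squares and dashed lines those chosen in the other strain. Lowered models in cc3491 went from 69.2% at 48 h to 36.2% at 96 h, those in 4A+ from 87.6% to 83.4%.

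The histone list held 27 models. They were nearly all genes of histone H2B, which packs DNA and is made mainly during DNA replication, and their median was raised on all 8 arrays. Their median ratio was 3.08, 2.61, 2.07 and 1.14 at 24, 48, 72 and 96 h in cc3491, and 1.95, 1.93, 1.90 and 2.12 in 4A+. In cc3491 both late values lay below both early values in 27 of 27 models, as in 2767 of all 12875. Differences there were -1.38 to -1.04 with a median of -1.26 (all models 0.04), whereas in 4A+ they were -0.05 to 0.26 with a median of 0.06 (all models 0.01). HTB1, for example, had 3.33, 2.77, 2.19 and 1.18 in cc3491 and 1.94, 2.01, 1.91 and 2.21 in 4A+. None of the 27 passed the test in cc3491 (adjusted p from 0.06 to 0.12) or in the difference between strains, and 0 were ordered in the same direction in both. H2B genes are near-identical copies whose probes can cross-hybridise, so the 27 models are not 27 measurements. The median in cc3491 stayed negative in every other setting (-1.59 to -0.65) and without any 1 array (-1.71 to -0.79), while that in 4A+ was -0.14 without the probes of the first array generation. The control RNA in red was also lower at each later time in cc3491, and its part in this decline was not tested.

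The light-harvesting antenna list was lowered in its median on all 8 arrays. Its 8 members, chlorophyll-binding proteins of photosystem I (LHCA1, LHCA5, LHCA7, LHCA8) and photosystem II (LHCB5, LHCBM4, LHCBM7, LHCBM8), had a median of -3.16, -3.33, -3.41 and -1.47 in cc3491 and of -2.22, -2.05, -2.07 and -1.87 in 4A+. LHCBM7 went from -4.78 at 72 h to 0.35 at 96 h in cc3491, and LHCA7 from -4.25 to -1.43, against -2.41 to -3.14 and -3.70 to -2.66 in 4A+. LHCBM4 and LHCBM8 were not lowered in this way in 4A+, at -0.15, 0.14, 0.67 and 1.04 and at -0.34, 0.15, -0.42 and -0.69. None passed the test. The median difference of the list in cc3491 was 0.52, but it was -0.73 without the 96 h array and 1.83 without the 72 h array, so the 96 h array decided the direction. PSAO and PSAH, small subunits of photosystem I, had a like course in cc3491, at -3.32, -3.65, -4.12 and -1.49 and at -3.71, -3.95, -3.36 and -1.65, and were -2.28 and -1.54 at 96 h in 4A+. FNR1, the ferredoxin-NADP reductase, had -2.53, -1.67, -3.54 and -3.07 in cc3491 without such a return. The 7 members of the photosystem list had a median difference of -0.41 in cc3491 and 0.14 in 4A+, with 0 called.

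The 5 stress-related antenna genes had ratios above 0 on all 8 arrays, but at very different levels. LHCBM9, an antenna protein known to be made under nutrient stress, had 5.51, 5.50, 4.42 and 5.06 in cc3491 and 6.39, 6.54, 5.88 and 5.85 in 4A+. It was ordered downwards in both strains, and its mean difference of -0.68 ± 0.14 did not pass the test (adjusted p = 0.0900). Its 3 probes were saturated in red on 4, 3 and 4 of the cc3491 arrays, and 2 probes of LHCSR1 on 3 and 4, so the ratios of both genes in cc3491 may be understated and their order there is uncertain. LHCSR1, which takes part in the harmless release of excess light energy, had its lowest ratio at 4.46 in cc3491 and 4.74 in 4A+. LHCSR3 had 3.07, 3.26, 2.76 and 1.03 in cc3491 but only 0.57, 0.75, 0.41 and 1.11 in 4A+, so the strains were apart by more than 2 early and alike at 96 h. LHCSR2 had 1.91, 2.39, 1.75 and 0.83 in cc3491 and 0.12, 0.42, 0.39 and 0.70 in 4A+, and ELI3, an early light-inducible protein, lay between 0.65 and 1.45 in both. In 4A+ only 1 of 3 probes of LHCSR2 and LHCSR3 each was well above background in red on all arrays. In cc3491, with the saturated genes included, 4 of the 5 members were ordered downwards (2767 of all 12875 models). The list median there was -0.76, and -0.41 without the 96 h array. In 4A+ the median was 0.11 and 1 member was ordered downwards (all models 16.5%). The study also describes LHCBM9 and the LHCSR genes from these arrays.

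**Figure D5:**
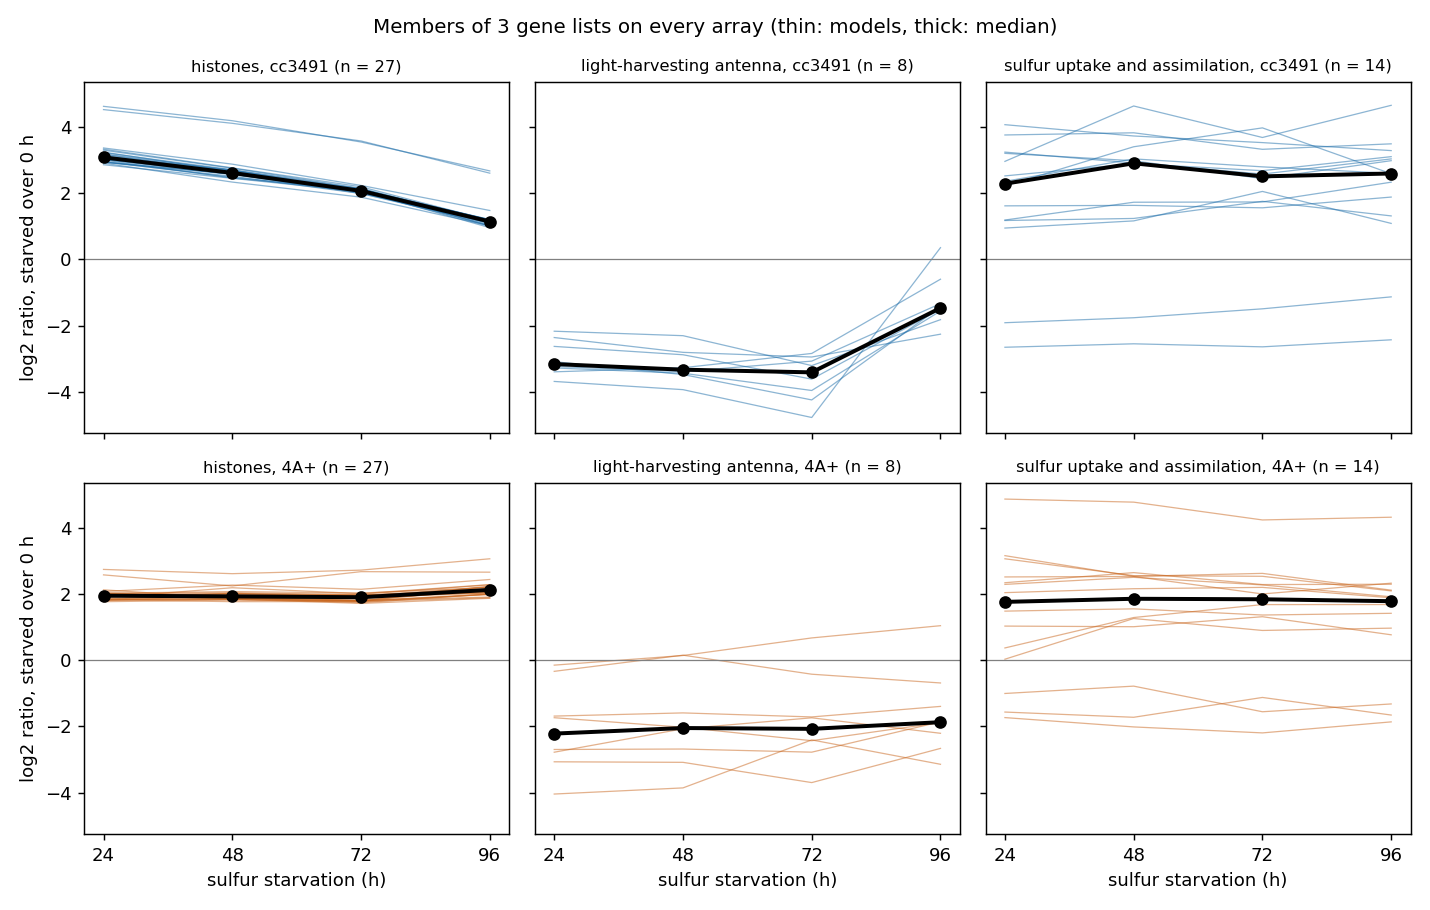
Log2 ratio of starved over 0 h RNA (y axis) at 24, 48, 72 and 96 h (x axis) for the members of 3 gene lists in cc3491 (top) and 4A+ (bottom), with thin lines for models and thick lines for medians. The histone median went from 3.08 to 1.14 in cc3491 and stayed between 1.90 and 2.12 in 4A+, the antenna median came up only at 96 h in cc3491, and the sulfur median stayed between 1.76 and 2.90.

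Chlorophyll and heme synthesis was measured through 4 genes. GSA, glutamate-1-semialdehyde aminotransferase, an early enzyme of the pathway, came back toward 0 h in both strains, at -2.68, -2.12, -1.63 and -0.59 in cc3491 and -0.80, -0.51, -0.34 and 0.32 in 4A+. It was ordered upwards in both, with differences of 1.30 and 0.65. PBGD1, porphobilinogen deaminase, the enzyme that follows later, had -2.43, -1.95, -1.66 and -0.73 in cc3491 and -1.48, -1.34, -1.88 and -0.38 in 4A+, and GUN4, a regulator of magnesium chelatase, -0.45, -0.44, -0.22 and 0.19 in cc3491. CPX1, coproporphyrinogen oxidase, was raised on all 8 arrays, between 1.81 and 3.29, with a difference of 0.21 in cc3491 and -1.03 in 4A+. None of the 4 passed the test, and the list median was 0.71 in cc3491 and 0.12 in 4A+.

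No member of the sulfur list was called. Its 14 members had medians of 2.29, 2.90, 2.51 and 2.60 in cc3491 and of 1.76, 1.86, 1.84 and 1.78 in 4A+, with a median difference of 0.14 and -0.18. The cc3491 sign was not stable, at -0.14 with the scanner's own ratios, -0.05 without the 24 h array and -0.03 without the 96 h array. The ATP sulfurylase gene ATS2, for the first step of sulfate activation, had 2.52, 2.89, 2.68 and 3.1 in cc3491 and 0.03, 1.26, 0.90 and 0.97 in 4A+. The transporter genes did not behave as 1 group: SLT2 was raised on all 8 arrays, between 0.95 and 2.05, and SLT3 was lowered on all 8, between -2.65 and -1.13. The arylsulfatase gene ARS5 was lowered too, at -1.91, -1.76, -1.49 and -1.13 in cc3491 and between -2.20 and -1.73 in 4A+. CDO1, a cysteine dioxygenase, which oxidises cysteine, was raised in cc3491 at 1.19, 1.73, 1.74 and 2.33 and lowered in 4A+ at -1.01, -0.78, -1.56 and -1.32. It was ordered in opposite directions, and the difference between strains of -1.12 did not pass the test (adjusted p = 0.25).

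The hydrogenase genes of anaerobic metabolism were raised on all 8 arrays. HYDA2, one of the hydrogenases, had 1.56, 1.14, 1.12 and 1.14 in cc3491 and 1.32, 0.93, 0.55 and 0.56 in 4A+, and HYDEF, which assembles the hydrogenase's metal cluster, had 1.23, 0.98, 0.54 and 0.43 in cc3491 and 0.65, 0.75, 0.55 and 0.46 in 4A+. Both were ordered downwards in both strains, as were 499 of all models. For HYDA2 in cc3491 the 48 and 96 h values were nearly equal, at 1.143 and 1.137. In the mean of both strains 1 of its 3 probes rose. HYDEF had an adjusted p = 0.04 in cc3491 but a difference of only -0.63, which is less than 2-fold. ADH1, an alcohol and aldehyde dehydrogenase, had 2.81, 2.30, 2.56 and 2.02 in cc3491 and 2.79, 2.22, 1.06 and 1.54 in 4A+. Over the 5 members the median difference was -0.23 in cc3491 and -0.57 in 4A+, with 4 of 5 ordered downwards in 4A+ (all models 16.5%) and 0 called.

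The other lists had 1 call in all, GLN3 among 4 nitrogen genes. Both members of the cytosolic ribosome list had a negative difference in both strains (median -1.28 in cc3491 and -0.49 in 4A+). Of all 12875 models, 5560 had one in cc3491 and 6181 in 4A+. RACK1 had -0.64, -1.43, -1.22 and -1.38 in 4A+, so its late values lay within its early range there. Phosphate transporter genes gave single-array changes in cc3491: PTA3 went from -3.05 at 72 h to 1.75 at 96 h, and PTB5 from -0.79 to 1.04, while PTB3 moved down from -2.30 to -3.28. In the carbon list, LCI28 had 0.36, 3.11, 4.82 and 2.72 in 4A+ and 0.98, 2.95, 2.58 and 2.93 in cc3491, and CAH1, the periplasmic carbonic anhydrase, stayed between -3.03 and -1.10 in both strains. The 6 plastid translation genes had differences from -0.65 to 0.30. The 22 flagellar and tubulin genes had median differences of 0.06 in cc3491 and -0.01 in 4A+. In 4A+ 17 of the 22 had no probe well above background in red on all arrays, and over probes above background in both channels on all 8 arrays the 4A+ median was -1.20. In 4A+ 7 of the 22 were ordered downwards (all models 16.5%). Of these, 3, named after their values were seen, differed by more than 2-fold without passing the test: TUB2, a beta-tubulin, at -3.17, -3.72, -5.19 and -4.09, FAP7 at -2.03, -2.53, -3.93 and -3.51, and FAP12 at -2.21, -3.02, -4.51 and -3.58. The 9 chaperone and 9 cell wall genes had medians between -0.06 and 0.11, and the 2 starch genes had 0.27 and -0.05. No member of an autophagy list carried a symbol here.

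The rule also named the models that differed most between the strains, and none passed the test of that difference. Model 146801 (CHLRE_01g044800v5) moved in opposite directions, at -0.17, -0.99, 1.79 and 2.63 in cc3491 and 0.79, -0.65, -2.32 and -3.17 in 4A+. The difference was -5.60 ± 0.85 (adjusted p = 0.0872). It rested on 2 of its 3 probes, since probe 3 stayed too dim in red on the 4A+ arrays and differed by 0.20 in cc3491. Probes 1 and 2 had a mean log2 green level (0 h RNA) of 8.37 and 10.79 in cc3491 and of 14.74 and 15.86 in 4A+. Model 132065 (CHLRE_03g213313v5), a short-chain dehydrogenase/reductase, rose in cc3491 from -0.59 and -0.11 to 3.16 and 3.88 (3.87 ± 0.36, adjusted p = 0.0102), while 4A+ had -1.30, -0.82, -0.32 and -1.03. One of its probes was at least 54.7-fold brighter late than early in cc3491, and its probe 3 differed by only 0.64. The green level of its probes 1 and 2 was 6.21 and 6.19 in cc3491 and 11.78 and 12.06 in 4A+. Model 154307 (CHLRE_03g180750v5) rose in cc3491 from -1.52 and -1.87 to 1.94 and 3.79 (4.57 ± 0.86, adjusted p = 0.0400) and had -2.0, 0.20, -1.17 and -0.56 in 4A+. Model 58140 (CHLRE_09g416050v5) had a difference of 2.85 in cc3491 and -0.43 in 4A+.

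In the other direction, 3 of the 4 models were lowest at 24 h and high from 48 or 72 h in 4A+. Model 190200 (CHLRE_14g617450v5) had 0.22, 6.56, 7.26 and 7.32 in 4A+ and between -1.05 and 0.18 in cc3491, where each probe was saturated on 3 of the 4 arrays. In 4A+ each probe was saturated on 1 array. The mean log2 green level (0 h RNA) of its probes was 14.73 to 15.76 in cc3491 and 10.30 to 11.20 in 4A+. Models 191668 (CHLRE_06g282800v5) and 187415 (CHLRE_05g247950v5) had 4A+ ratios of -1.91, -0.45, 1.96 and 1.72 and of -1.26, 2.17, 3.54 and 3.31. The study lists model 191668 as ICL1, an isocitrate lyase. Its 4A+ difference was 4.61 and 4.55 on probes 1 and 2 but -0.10 on probe 3. In cc3491 its probes 1 and 2 were saturated on 3 and 1 arrays. The green level of these 2 probes was 15.46 and 14.91 in cc3491 and 11.99 and 11.64 in 4A+. For model 187415 the green level was 13.79 to 14.57 in cc3491 and 9.45 to 10.17 in 4A+. These 3 models were thus already brighter at 0 h in cc3491, with strain and slide not told apart. The fourth, model 205806, a U2 small nuclear RNA, part of the splicing machinery, differed through cc3491: it had 5.35, 3.82, 2.62 and -0.19 there, and 2.72, 4.07, 2.38 and 3.44 in 4A+. The adjusted p of the difference was 0.447. The strains were apart only on the 24 h and the 96 h arrays, in opposite directions.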

How the data were processed

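The authors deposited Agilent scanner output (Feature Extraction 10.7.3.1, per the submitters' processing notes) in which the intensity of a spot and of its surroundings is the median of its pixels, for red and for green. The deposited log10 ratio of red over green had been background subtracted and dye normalized by that software, and the series matrix held the same values (largest difference 0). The lowess step of the study's methods was not part of these columns.

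Intensities were corrected with normexp (offset 50, parameters from unmarked spots whose net signal exceeded -100), normalized by loess within each array and converted to log2 ratios (limma 3.58.1, R 4.3.3). Control and outlier spots were left out and saturated spots kept. Of 43687 probes of 14557 transcript models, 29279 were tested, those that exceeded background well, in red or in green, on 2 or more arrays of 1 of the 2 strains. A model is the mean of its tested probes.

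The limma fit on 8 arrays had 1 coefficient per strain and phase (4 residual degrees of freedom). Calls needed an adjusted p below 0.05, by Holm or Benjamini-Hochberg over all 12875 models, and 2-fold. The fit was tested on simulated data.

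The members and lists were chosen with earlier results of these data known. The naming rule took, in each direction, the 8 largest mean differences among models ordered in both strains with at least 2 probes that had 1 sign and were well above background in red late (rising) or early (falling), 4 models each way for the difference between strains, and list members that were called or ordered at 2-fold. Symbols were read from the study's supplementary tables, leaving out rows whose name and identifier disagreed, and loci from RefSeq through older model numbers (10894 of the tested models). RefSeq's assembly is not the one the probes were designed on, so no coordinates are given. The alternatives were other background corrections, scalings, filters and probes, all 15 arrays, an additive fit, a slope over time and leaving out each array. Probe-level tests, the followed shares under other settings, and ordered models and lists without 1 array were added after seeing the data. Nitrogen starvation was not analysed here.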

Additional observations from a re-analysis of the deposited data

Results flagged for a closer look

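In model 146801 both late arrays of cc3491 lay above both early arrays, and both late arrays of 4A+ lay below both. Its late minus early difference was 2.79 in cc3491 and -2.81 in 4A+, so that 4A+ minus cc3491 was -5.60. The limma test of this difference missed the threshold (adjusted p = 0.0872), and over the other settings it lay between -8.27 and -4.88 with adjusted p from 0.0546 to 0.406. Of the symbols called in cc3491 and the members of the gene lists, 8 more had late arrays on opposite sides of the early arrays in the strains, and none passed the test of the difference. Over all 12875 models, 559 went up in cc3491 and down in 4A+, and 403 the reverse. With cc3491 up and 4A+ down, 4A+ minus cc3491 was -1.78 for VTE4, -1.12 for CDO1, -2.08 for LHCBM8, -0.24 for LCI33 and -1.40 for ACK1. With cc3491 down and 4A+ up, it was 0.86 for CSP41b, 1.55 for HTB10 and 0.22 for FAP75.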

How the results depend on the processing

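Counts of calls depended on the processing, while no named difference that was followed across the settings changed direction. The calls of named models were less stable, counting also the settings without 1 array. Model 156256 lost its call for the mean in 10 of 16 settings and model 155883 in 9 of 16. In cc3491 the loss ranged from 1 of 15 settings for model 132065 and 2 of 15 for GLN3 to 11 of 16 for THY28 and 13 of 16 for ANK27. Benjamini-Hochberg in place of Holm adjustment gave 30 models for the mean and 345 for cc3491. With an offset of 0 Benjamini-Hochberg adjustment called 0 for the mean and 1 for cc3491, with 181 and 42 ordered models higher and lower late. Median centring called 275 (Holm 1) for the mean, 1159 (Holm 9) for cc3491 and 65 (Holm 1) for the strain difference, with 305 and 2 ordered. It raised the share of higher calls in cc3491 from 83.5% to 99.1% and in the mean from 83.3% to 100%, with a median of all models of 0.13 in cc3491 and -0.12 in the strain difference. The scanner's ratios called 2 (Holm 1) and 33, 66.7% of them higher, with 270 and 81 ordered and a median strain difference of 0.11. Probes above background in both channels on all 8 arrays (4515 models) called 0 and 206 (Holm 0 for cc3491), with 146 ordered upwards. No filter called 13 and 209 (Holm 5). Without the probes of the first array generation, Holm adjustment called 1 for the mean, 4 for cc3491 and 1 for the difference, where Benjamini-Hochberg adjustment called 2. All 15 arrays in the fit gave Holm counts of 2, 18 and 2 and 23 by Benjamini-Hochberg adjustment for the difference. The additive fit and the slope called 0. Single probes in place of models called 79 for the mean and 976 (Holm 3) for cc3491.

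Leaving out 1 array gave Benjamini-Hochberg counts of 0 to 102 for the mean, 0 to 599 for cc3491, 0 to 2 for 4A+ and 0 to 273 for the difference, and Holm counts of 0 to 5, 0 to 12, 0 and 0 to 3. Ordered models numbered 78 to 155 upwards and 17 to 57 downwards. The lone array of a phase was then assumed to vary like the other groups.

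The share of models lowered at 24 h in cc3491 that stayed lowered at 96 h was 41.1% with an offset of 0, 25.2% with median centring (73.8% at 48 h), 50.6% with the scanner's ratios and 29.4% for probes above background in both channels. The drop from 48 to 96 h remained in every setting, by 20.4 to 48.6 points. For raised models in cc3491 the 96 h share was 53.2%, 73.1% and 49.3% in the first 3 of these settings. In 4A+ the default normexp fit gave 71.2% raised at 96 h and 90.7% and 87.0% lowered at 48 and 96 h. An offset of 0 gave 63.8% and 56.7% raised and 58.5% and 57.5% lowered at 48 and 96 h, and the scanner's ratios 65.0%, 59.8%, 66.4% and 65.1%.

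Signal limits 4A+ most, where fewer probes were well above background in red. No paired analysis was possible because the labels give no replicate numbers, and strain was already in the fit.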

Other observations

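The mutant npq4 had arrays at 24, 48 and 96 h, so its 96 h array could be set against its early arrays. The 288 models called higher late in cc3491 had a median of 0.00 there and were positive in 51.0%, against 49.7% of all models. The 57 models called lower late in cc3491 were positive in 71.9%, with a median of 0.10. With 1 late array this was not tested, and the 72 h array of npq4 was not analysed here. On the npq4 96 h array 14313 probes were well above background in red.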
